A study of Mus musculus with 4 samples.

Results

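The aminoacyl-tRNA synthetase genes and the marker genes of the integrated stress response were described in 4 RNA-seq libraries of mouse bone-marrow-derived macrophages. Members were chosen by symbol: every gene named as a cytosolic or mitochondrial synthetase, plus Atf4, Ddit3, Asns, Chac1, Trib3, Sesn2, Psat1, Phgdh, Shmt2, Mthfd2, Ddit4 and Ppp1r15a. The rule took 50 of 55536 genes: 20 cytosolic synthetases, 17 mitochondrial synthetases and 13 stress response entries. Ddit3 has 2 gene identifiers, and the second, which lies inside the first, was listed at 0 TPM in all 4 libraries, with 1 count in replicate 1, so 49 symbols carried values. All libraries belong to 1 group. Primary macrophages of strain C57BL/6J received Lipid A, a Toll-like receptor 4 ligand, at 100 ng/mL for 12 hours, were kept free of it for a further 12 hours, and received 100 ng/mL again for 60 minutes before RNA was taken. In other label fields the agent is called lipoprotein A, and the washout is missing there. The labels give 4 separate biological samples that all point to 1 donor entry of the strain, and the sex and age of the mice were not collected. No untreated or singly treated group was analysed here, so no value below is a response to Lipid A. The p-values concern only differences between these samples, or between 2 quantifications of them.

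Each synthetase joins an amino acid to its tRNA. A symbol ending in 2 marks the mitochondrial enzyme, which is encoded in the nucleus, and the products of Gars and Kars serve both compartments. When amino acids run short, the endoplasmic reticulum is stressed, haem is lacking or double-stranded RNA is present, kinases phosphorylate the initiation factor eIF2. Protein synthesis then falls while the transcription factor ATF4 is translated more, and ATF4 with its partners raises genes for amino acid synthesis and uptake and many cytosolic synthetases. In macrophages Ppp1r15a is also known as a gene that Toll-like receptor signalling induces directly.

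Counts on genes ran from 23167140 to 41453162 a library, and a count of 0 allowed at most 0.0724 to 0.129 CPM (counts scaled to library size; 3 counts, counting error only). All 10 macrophage markers stood at 1 TPM (a level per transcript length, scaled to the same sum in each library) or more in each library, while 0 of 9 T and NK cell, 0 of 6 mast cell and basophil, 0 of 6 stromal, 1 of 6 B cell and 1 of 6 dendritic cell markers did. Of the 10 neutrophil markers 2 did, S100a8 and S100a9, while Ly6g and Retnlg were at 0 throughout. The neutrophil markers summed to 133 TPM in replicate 1, 13.1 in replicate 2, 106 in replicate 3 and 12.7 in replicate 4. Genes annotated as ribosomal RNA took 7.14%, 2.73%, 1.29% and 2.69% of TPM in replicates 1 to 4.

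Of the 50 genes, 47 reached 1 TPM in each library. The exceptions were Ddit4, Mars2 and the second Ddit3 identifier. The median level over the 13 stress response entries, as log2(TPM + 0.1), was 3.94 ± 0.78 (SD, n = 4 libraries). The Ddit3 identifier at 0 TPM counts among these entries and lowers the median. Cytosolic synthetases stood at 5.47 ± 0.22 and mitochondrial synthetases at 2.46 ± 0.20, beside 4.09 ± 0.10 over all 10407 genes detected. Genes detected are those at 1 TPM or more in each library, a filter that was not put on the member groups. The SD over libraries was thus widest for the stress response group, whose 4 medians were 3.34, 4.55, 3.19 and 4.68 in replicates 1 to 4.

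**Figure D1:**
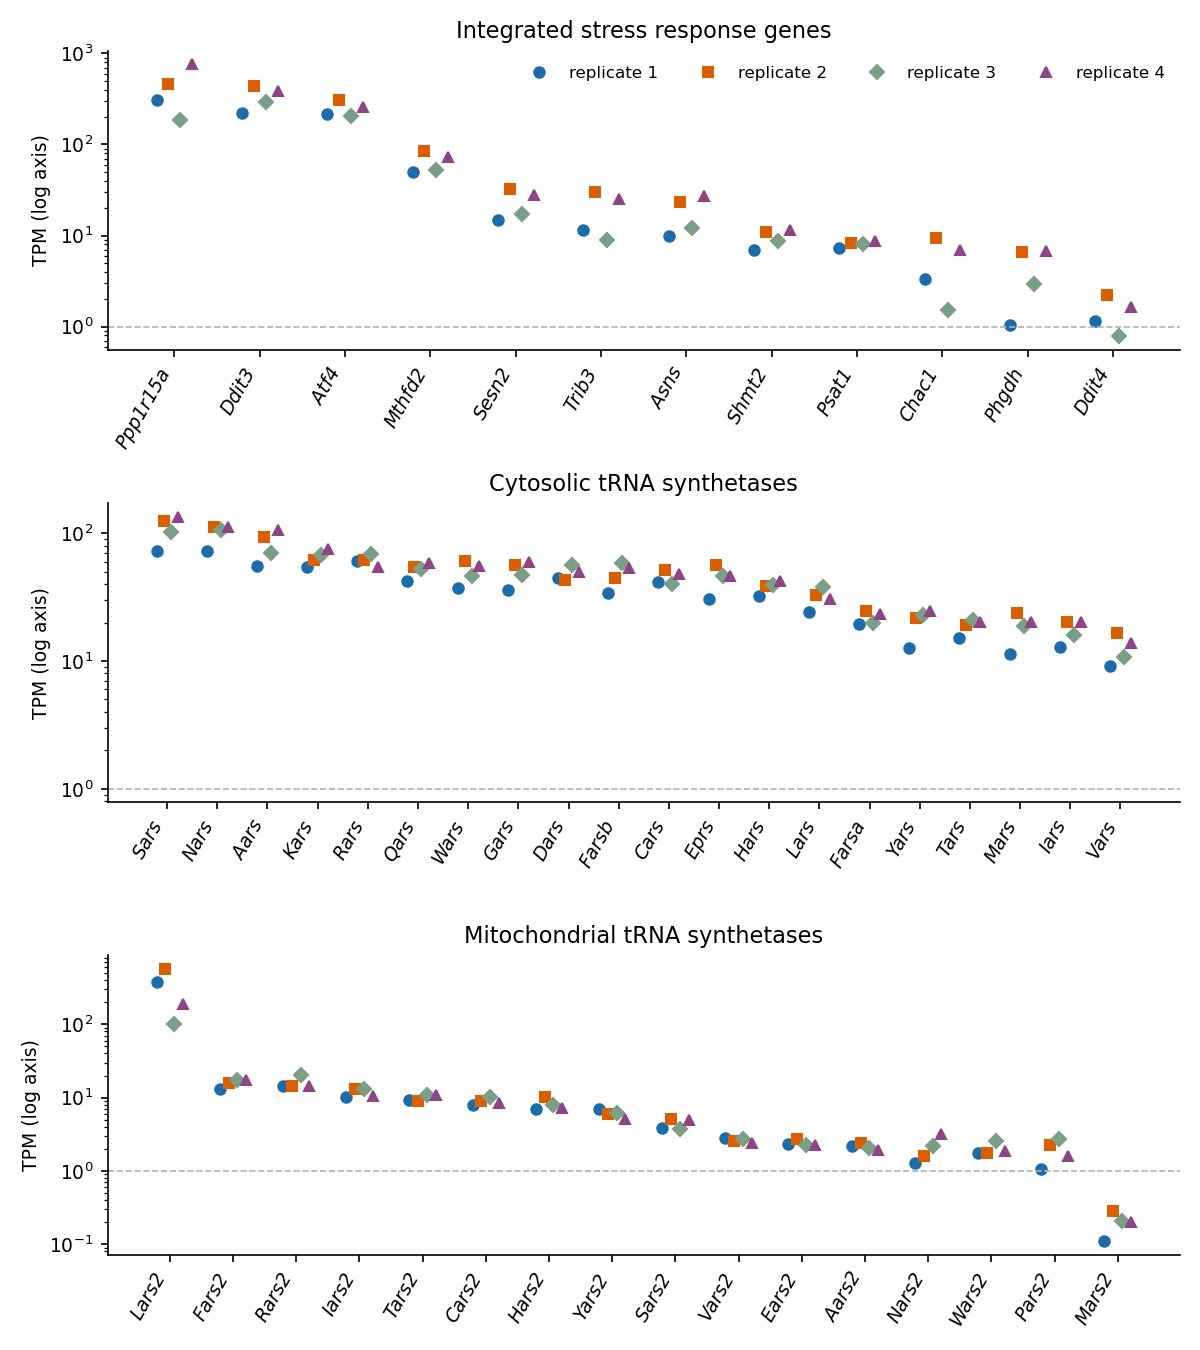
TPM by gene (log axis) in replicates 1 to 4, in panels for the stress response genes, cytosolic synthetases and mitochondrial synthetases, ordered by mean; the dashed line marks 1 TPM. Lars2 stands at 100.1 to 567 TPM, apart from the other mitochondrial enzymes, and Mars2 lies below the line in each library.

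Atf4 encodes the central transcription factor of the response, and its message is regulated chiefly through translation. Its level was 214 TPM in replicate 1, 310.3 in replicate 2, 203 in replicate 3 and 259 in replicate 4 (247 ± 48.8, SD, n = 4), at the 94.2 percentile of the genes detected. Ddit3, which encodes CHOP, a transcription factor that follows ATF4 in prolonged stress, stood at 220.1, 442, 293 and 384 TPM in replicates 1, 2, 3 and 4. Both were highest in replicate 2. Ddit3 shares 68 exonic bases with Mars on the opposite strand, and the strand setting of the counting is not given in the sources used here.

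The brakes of the response differed in height: Ppp1r15a was among the highest of all genes and Trib3 near the middle. Ppp1r15a encodes GADD34, the subunit that brings the phosphatase to eIF2 and ends the translational block. Its level was 308 TPM in replicate 1, 465 in replicate 2, 184 in replicate 3 and 759 in replicate 4 (429 ± 248, SD, n = 4), which is the 96.7 percentile. Replicate 4 was the highest and replicate 3 the lowest. Trib3, a pseudokinase that binds ATF4 and limits it, stood at 11.6, 30.01, 9.02 and 25.5 TPM in replicates 1 to 4. Replicates 2 and 4 were high and replicates 1 and 3 low.

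Amino acid and redox effectors followed. Asns encodes asparagine synthetase, a long-studied ATF4 target. It was measured at 10 TPM in replicate 1, 23.3 in replicate 2, 12.2 in replicate 3 and 27.0 in replicate 4. Chac1, whose product degrades glutathione, stood at 3.37, 9.32, 1.52 and 6.97 TPM in the same order. Both genes were higher in replicates 2 and 4 than in replicates 1 and 3. Sesn2, a sensor of leucine that restrains mTORC1, was at 14.8, 32.8, 17.1 and 28.0 TPM. Ddit4, which encodes the mTORC1 inhibitor REDD1, was low, at 1.16, 2.20, 0.78 and 1.65 TPM, and replicate 3 fell under 1 TPM.

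Serine and mitochondrial folate enzymes were unequal in level and in spread. Phgdh, the first enzyme of serine synthesis, stood at 1.03 TPM in replicate 1, 6.55 in replicate 2, 2.95 in replicate 3 and 6.70 in replicate 4. The authors' interval for its TPM ran from 0.898 to 2.38 in replicate 1 and from 5.67 to 8.70 in replicate 2, so these 2 intervals did not overlap. Phgdh has 11 other genes, pseudogenes among them, whose transcripts match at least 70 of its bases at 95% identity or more, and the highest of these averaged 0.0825 TPM. Psat1, the next enzyme, was nearly level, at 7.24, 8.38, 8.05 and 8.77 TPM. Shmt2, which makes glycine in mitochondria, was at 6.91, 11.0, 8.74 and 11.5 TPM. Mthfd2, the mitochondrial folate dehydrogenase, was the highest of the 4, at 49.5, 85.0, 52.4 and 73.0 TPM. Across the 12 stress response genes, CPM scaled by TMM, a method that aligns library compositions, was highest in replicate 2 for 7 genes and in replicate 4 for 5, and lowest in replicate 3 for 7 and in replicate 1 for 5. Over all 11679 genes tested, replicate 2 was highest for 18.9%, replicate 4 highest for 26.0%, replicate 3 lowest for 22.8% and replicate 1 lowest for 29.2%.

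**Figure D2:**
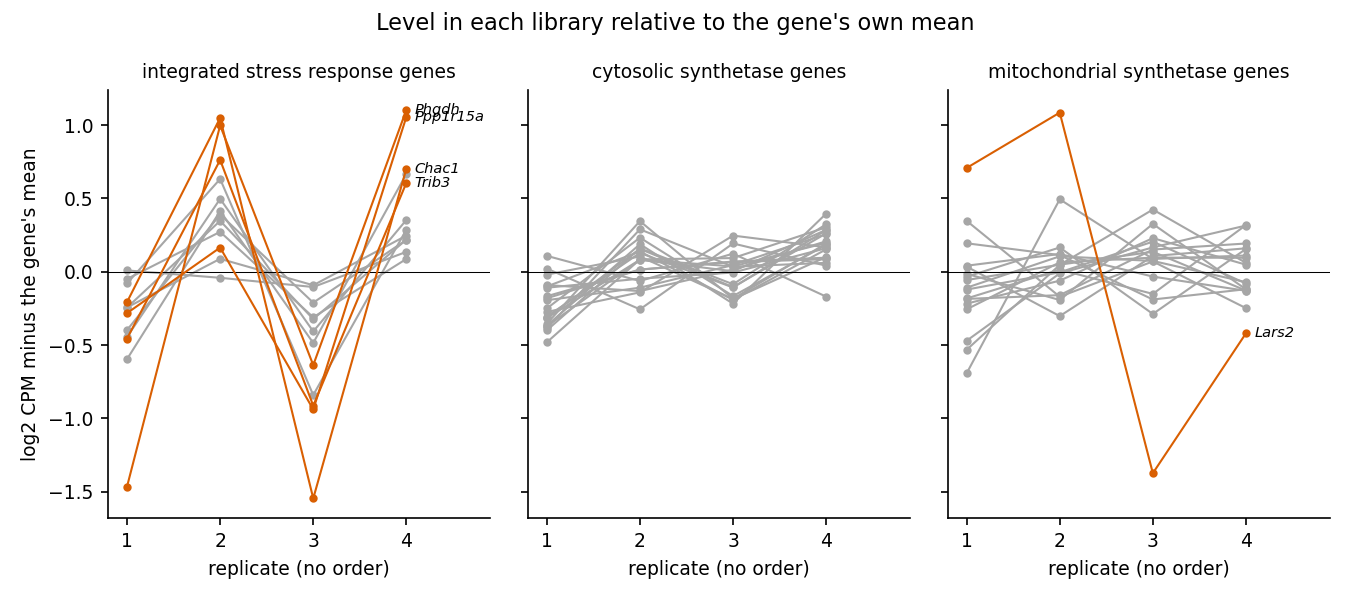
Scaled log2 CPM of each gene minus its own mean over 4 libraries, by replicate, for the 3 groups; a line joins the values of 1 gene and replicates have no order. Genes that varied more than others of their abundance are in orange: Phgdh, Ppp1r15a, Chac1 and Trib3 lie above their means in replicates 2 and 4, and Lars2 in replicates 1 and 2.

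Lars2 and 4 stress response genes differed between libraries by more than genes of like abundance. For each gene, edgeR's deviance over the 4 libraries was set against the spread that its trend assigns to that abundance, with Benjamini-Hochberg adjustment over all genes. This called 305 of 11679 genes, which is 2.61%, and 5 of the 49 members tested. Ppp1r15a (chr7:45522916-45526268) differed 3.98-fold between the highest and the lowest library in CPM (edgeR adjusted p = 0.00289). Trib3 (chr2:152337422-152344032) differed 3.19-fold (edgeR adjusted p = 0.00348). Phgdh (chr3:98313170-98339990) differed 5.93-fold (edgeR adjusted p = 0.00452). Chac1 (chr2:119351229-119354381) differed 6.04-fold (edgeR adjusted p = 0.0135), and Lars2 5.49-fold (edgeR adjusted p = 1.29e-05). Asns differed 2.40-fold without passing the adjusted threshold (edgeR adjusted p = 0.0857), and so did Sesn2 at 1.92-fold (edgeR adjusted p = 0.271). Atf4, Ddit3, Ddit4, Mthfd2, Psat1 and Shmt2 did not pass either, with CPM ratios of highest to lowest from 1.18 for Psat1 to 2.78 for Ddit4.

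The calls rested on few libraries. Without replicate 3, Phgdh alone of the 5 passed, and the edgeR adjusted p was 0.123 for Lars2, 0.207 for Ppp1r15a, 0.219 for Trib3 and 0.972 for Chac1. Without replicate 2, Trib3 (edgeR adjusted p = 0.117) and Chac1 (0.185) did not pass. Phgdh did not pass without replicate 1 (edgeR adjusted p = 0.103), nor Ppp1r15a without replicate 4 (edgeR adjusted p = 0.539). The neutrophil marker sums ran the other way, high in replicates 1 and 3 where the 4 stress response genes were low. Of that list only S100a8 and S100a9 reached 1 TPM in each library, and both varied by the same test. The part of these markers in the result was not tested. The macrophage markers summed to 18991, 19308, 20147 and 22110 TPM in replicates 1 to 4. In bulk RNA, fewer cells of a type and less RNA per cell cannot be told apart.

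**Figure D3:**
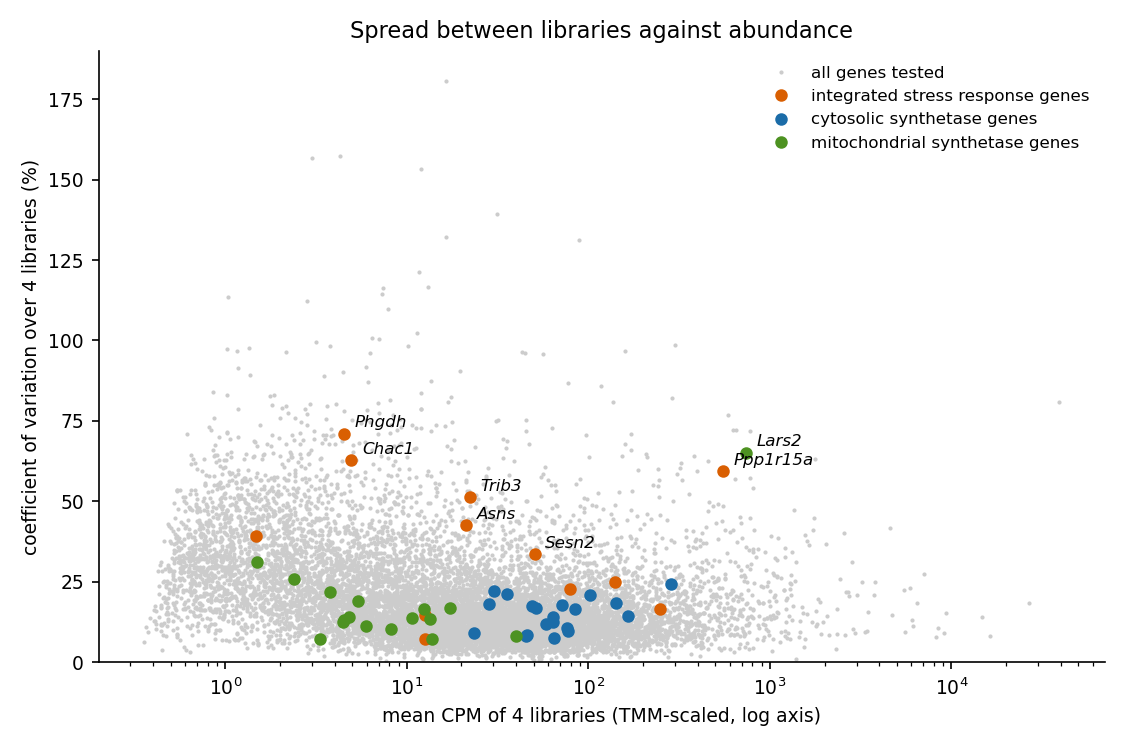
Coefficient of variation over 4 libraries against mean scaled CPM (log axis) for all genes tested (grey) and for the members in 3 colours, with names for the 5 that passed and for Asns and Sesn2. Cytosolic synthetases lie at or below 24.4%, while Phgdh reaches 71.1% and Lars2 65.1%.

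Other genes of the pathway gave the following counts of genes that varied, beside 2.61% of all 11679 genes tested. Of 27 further reported ATF4 targets 18 were tested and 5 varied: Slc7a11, Slc38a2, Gdf15, Vegfa and Herpud1. Slc7a11, the cystine importer, stood at 1.22, 2.85, 0.41 and 2.21 TPM in replicates 1 to 4 (edgeR adjusted p = 0.000825). Gdf15, a secreted stress hormone, stood at 109, 470.0, 112 and 326 TPM (edgeR adjusted p = 7.83e-06). Both were high in replicates 2 and 4. Slc38a2, an amino acid transporter, was at 12.5, 28.2, 9.86 and 25.7 TPM (edgeR adjusted p = 0.00445). Herpud1, a component of degradation at the endoplasmic reticulum, was at 12.8, 47.9, 22.8 and 35.4 TPM (edgeR adjusted p = 0.00375). Vegfa, the vascular growth factor, departed from the others in replicate 3, at 12.0, 44.9, 38.0 and 58.4 TPM (edgeR adjusted p = 1.12e-05). By CPM the highest library of the 18 was replicate 2 for 10, replicate 4 for 7 and replicate 1 for 1, and the lowest was replicate 3 for 11 and replicate 1 for 7. The highest gene of that list was Sqstm1, an autophagy receptor, at 1022 TPM on average.

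Among 6 further transcription factors of the response 1 varied, Atf5, at 13.0, 37.4, 17.8 and 35.3 TPM in replicates 1 to 4 (edgeR adjusted p = 0.0217), and the highest was Atf3 at 352 TPM on average. None of the 4 eIF2 kinases varied, of which Eif2ak2, the kinase activated by double-stranded RNA, was highest at 87.5 TPM. No gene of the 13 for eIF2, its exchange factor eIF2B and its phosphatases varied either, with Ppp1ca highest at 280.2 TPM. The 14 genes of the ATF6 and XBP1 branches of the unfolded protein response also gave 0 calls, and Calr was highest at 714 TPM. The same held for 14 synthetase partners and other charging enzymes, led by Aimp1 at 36.0 TPM and for the 11 tested genes of the one-carbon pathway. Among the 9 tested paralogs of stress response members only Atf5, named above, varied, and Ppp1r15b was highest at 61.3 TPM. With 2.61% of all genes called, 0 calls in lists of this length are not read as steadiness of their genes. At an unadjusted edgeR p up to 0.05, 910 of 11679 genes and 7 of 49 members passed. In these 5 lists without a call 2 genes did, among them Dnajb9 of the unfolded protein response (edgeR adjusted p = 0.50).

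Promoters of the members were searched for TGATGNAA on both strands, the core of the element that ATF4 binds together with C/EBP factors. The windows came from the RefSeq table of GRCm38.p6 and ran from 250 bases before to 50 after the start of transcription, and 39 of the 49 symbols matched an entry. The letters occurred for 5 of 13 cytosolic synthetases, 3 of 12 stress response genes and 0 of 14 mitochondrial synthetases, beside 3.97% of all 32851 windows and 4.51% of all genes in the table. The lines below give 1 match for each of these 8 genes within 30 bases, 5′ to 3′ on the gene's strand. Members that passed the test between libraries and members that did not are both shown. Capitals mark the match, and TTGCATCA and the like are TGATGNAA read on the other strand.
Asns, chr6:7693214-7693243, minus strand: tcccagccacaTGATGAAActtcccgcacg
Chac1, chr2:119351038-119351067, plus strand: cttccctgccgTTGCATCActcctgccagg
Trib3, chr2:152344028-152344057, minus strand: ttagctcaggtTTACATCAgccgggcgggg
Aars, chr8:111033840-111033869, plus strand: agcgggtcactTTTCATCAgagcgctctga
Gars, chr6:55037960-55037989, plus strand: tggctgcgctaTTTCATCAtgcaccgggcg
Iars, chr13:49682126-49682155, plus strand: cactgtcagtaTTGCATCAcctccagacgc
Tars, chr15:11399655-11399684, minus strand: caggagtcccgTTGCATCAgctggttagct
Yars, chr4:129189895-129189924, plus strand: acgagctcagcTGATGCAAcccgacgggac

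Counted from the start of transcription, the match shown began at base -23 in Asns, -193 in Chac1, 15 in Trib3, 10 in Aars, -30 in Gars, 8 in Iars, -15 in Tars and 4 in Yars. Aars has a second match, not shown, which began at base -112. Chac1 and Trib3, which varied between libraries, thus carry it, while Phgdh, Ppp1r15a and Lars2, which varied too, had 0 matches. Asns, Aars, Gars, Iars, Tars and Yars, which did not pass, also carry a match. Not passing does not make a gene steady: Asns differed 2.40-fold in CPM, at an unadjusted edgeR p of 0.00268, and was high in replicates 2 and 4 like Chac1 and Trib3. Chac1 had the widest ratio of highest to lowest library in scaled CPM among the stress response genes (in TPM, Phgdh had), and its upstream stretch of 237 bases outside the annotated transcript is given for that reason, with the match in capitals.
Chac1 upstream, chr2:119350992-119351228, plus strand: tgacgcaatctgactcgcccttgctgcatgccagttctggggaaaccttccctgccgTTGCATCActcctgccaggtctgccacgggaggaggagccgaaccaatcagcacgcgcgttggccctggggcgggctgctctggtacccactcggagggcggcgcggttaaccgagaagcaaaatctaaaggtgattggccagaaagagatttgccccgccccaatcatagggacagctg
A match is a description of letters and was not tested for binding.

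The 20 cytosolic synthetases were all measured at 1 TPM or more in each library, and 19 of them at 10 TPM or more. Sars, the seryl enzyme, was the highest, at 73.0 TPM in replicate 1, 125 in replicate 2, 102 in replicate 3 and 135 in replicate 4. Nars, the asparaginyl enzyme, followed at 72.8, 111, 105 and 112 TPM. Aars, the alanyl enzyme, stood at 55.6, 93.2, 70.5 and 106 TPM. All 3 were lowest in replicate 1. Kars, the lysyl enzyme, was at 54.7, 61.8, 67.3 and 75.8 TPM, and Rars, the arginyl enzyme, at 60.7, 62.0, 69.0 and 54.6 TPM. In the order of means, Kars (64.9 ± 8.91, SD, n = 4) and Rars (61.6 ± 5.91) were close, as were Sars (109 ± 27.5) and Nars (100.4 ± 18.7). Within each of these pairs the order changed between libraries, and the differences were not tested. At the low end Vars, the valyl enzyme, stood at 9.13, 16.5, 10.8 and 13.9 TPM. Iars, the isoleucyl enzyme, was at 12.8, 20.3, 16.1 and 20.0 TPM, and Mars, the methionyl enzyme, at 11.4, 23.7, 18.6 and 20.2 TPM. The other 12 had means from 18.8 TPM for Tars to 51.7 for Qars.

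None of the 20 cytosolic enzymes varied by the edgeR test, adjusted or at an unadjusted p up to 0.05, and their ratio of highest to lowest library in CPM ran from 1.19 to 1.72. Their median coefficient of variation was 15.6%, beside 15.8% over all genes tested and 36.4% over the stress response genes. A ratio of at least 2 was reached by 0 of 20 cytosolic enzymes, 2 of 17 mitochondrial enzymes and 6 of 12 stress response genes, beside 17.7% of all genes tested. Replicate 1 was the lowest for 15 of the 20, beside 29.2% of all genes tested, and replicate 4 the highest for 13, beside 26.0%. Replicate 1 also had the highest share of ribosomal RNA and the highest neutrophil marker sum, and their part in this order was not tested. The 8 enzymes of the multisynthetase complex, a cytosolic assembly of synthetases, had a median of 46.7 TPM over their means, and the 12 outside it 46.5 TPM.

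Apart from Lars2, the mitochondrial enzymes were low. Fars2, the phenylalanyl enzyme, stood at 13.2 TPM in replicate 1, 15.9 in replicate 2, 17.6 in replicate 3 and 17.1 in replicate 4. Rars2, the arginyl enzyme, was at 14.3, 14.4, 20.1 and 14.2 TPM, with replicate 3 apart from the others. Iars2, the isoleucyl enzyme, was at 10.3, 13.2, 13.2 and 10.4 TPM, but 22.9% of its exonic bases are shared with Rab3gap2 on the opposite strand. Tars2, the threonyl enzyme, was at 9.31, 8.86, 10.9 and 10.8 TPM. Wars2, the tryptophanyl enzyme, was at 1.74, 1.77, 2.58 and 1.85 TPM, and Pars2, the prolyl enzyme, at 1.05, 2.22, 2.71 and 1.58 TPM. Mars2, the methionyl enzyme, was lowest, at 0.11, 0.28, 0.21 and 0.20 TPM. The other 9 averaged from 2.06 TPM for Nars2 to 8.88 for Cars2. Without Lars2, the mitochondrial median was 2.31 ± 0.16 on the log2(TPM + 0.1) scale, and 0 of 16 varied.

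For 14 amino acids the table holds 1 cytosolic and 1 mitochondrial enzyme of the same stem. The cytosolic gene was higher in all 4 libraries for 13 of these pairs, by 1.47-fold for Iars over Iars2 up to 92.3-fold for Mars over Mars2 in mean TPM, with a median over the 14 pairs of 4.93-fold. Hars and Hars2, which are 4.76-fold apart, are read from opposite strands and share 195 exonic bases. The leucyl pair alone ran the other way, with Lars at 24.2, 32.6, 38.0 and 30.7 TPM in replicates 1 to 4 and Lars2 far above it.

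Lars2 (chr9:123366927-123462666, plus strand) encodes the mitochondrial leucyl enzyme. Its gene-level value was 377 TPM in replicate 1, 567 in replicate 2, 100.1 in replicate 3 and 188 in replicate 4 (308 ± 208, SD, n = 4), where the highest value of any other mitochondrial synthetase was 20.05 TPM, for Rars2 in replicate 3. Replicate 2 was highest and replicate 3 lowest. By transcript, however, Lars2-201, which encodes the enzyme, stood at 6.82, 10.5, 9.76 and 11.5 TPM, below Lars in each library. Between 90.1% and 98.1% of the Lars2 value sat in Lars2-209, a transcript annotated as a target of nonsense-mediated decay, at 370 TPM in replicate 1, 556 in replicate 2, 90.2 in replicate 3 and 176 in replicate 4. The order of the 4 libraries for the gene is therefore the order of Lars2-209, and Lars2-201 has another order.

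Lars2-209 has 3756 bases and Lars2-201 3894. Its exon 12 is 117 bases shorter, and it ends 2 bases further on, at 123462666. In the last exon, past the coding stop of Lars2-201, bases 3093 to 3189 of Lars2-209 match AA474408, a gene on another chromosome, at 94.8% identity over 97 bases, and bases 3138 to 3209 match Gm15564 at 98.6% over 72 bases. The longest exact run shared with AA474408 has 41 bases, of which 30 are given; Lars2-201 holds them too, Lars2-205 does not, and 2 transcripts of other genes do.
Lars2 last exon, chr9:123462048-123462077, plus strand: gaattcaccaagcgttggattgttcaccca
In the first quantification AA474408 stood at 0.02 to 0.11 TPM, and in the second at 371, 595, 164 and 243 TPM in replicates 1 to 4. Gm15564 stood at 0 in the first and at 45.0, 60.0, 15.7 and 22.8 TPM in the second. Both thus had replicate 2 highest and replicate 3 lowest, as Lars2 did. The ribosomal RNA gene CT010467.1, the highest of 5 such entries listed, was at 71358, 27299, 12897 and 26892 TPM, also lowest in replicate 3 but highest in replicate 1. By CPM the 4 entries tested between libraries each had another highest library. Of the 5 entries 1 was called higher in the second quantification and 0 lower, beside 7.68% and 3.22% of all genes tested. The shared stretch was not compared with a ribosomal RNA sequence here. How much of the gene-level Lars2 values in either quantification is Lars2 message, and the part of shared sequence or of ribosomal RNA in them, was not tested.

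**Figure D4:**
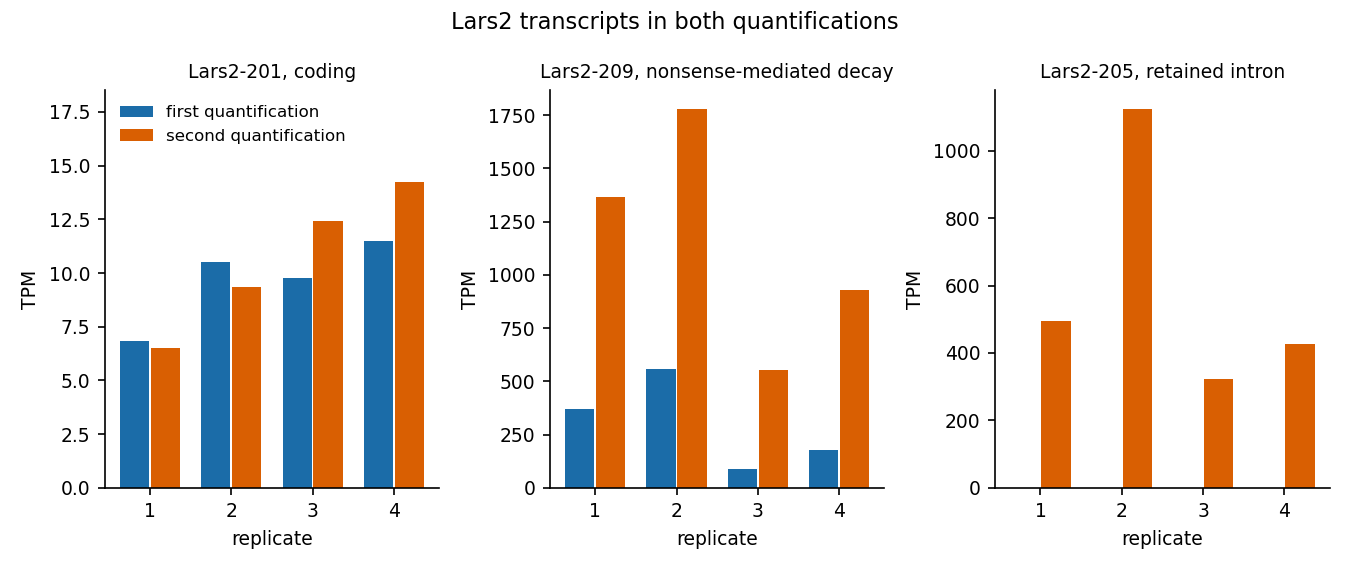
TPM of 3 Lars2 transcripts in replicates 1 to 4, by the first (blue) and second (orange) quantification, each panel with its own axis from 0. Lars2-201 is at most 14.3 TPM in both, Lars2-209 reaches 556 and 1777 TPM, and Lars2-205 is at 0 in the first.

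Coding transcripts held a median of 99.2% of the TPM of a stress response gene, 94.9% of a cytosolic and 90.7% of a mitochondrial synthetase, beside 97.4% over 9704 detected protein-coding genes. Qars, Cars2 and Lars2 were among the members with a share under 50%, which 5.75% of those genes had. In Qars, the glutaminyl enzyme, coding transcripts held 34.7% ± 4.34 (SD, n = 4) and the decay transcript Qars-231 46.0% ± 5.74. Qars-231 stood at 19.9, 20.9, 27.4 and 26.7 TPM in replicates 1 to 4, a narrow range. Cars2 had 41.4% ± 6.21 in coding transcripts. The leading transcript was the same in both quantifications for 47 of 49 members. The share over all genes was not computed, so this count is not read as a trait of the members. In Iars the lead passed from Iars-206 to Iars-201, both coding.

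The authors' second quantification assigned the same reads in another way, and Lars2 was the only member whose level it moved past the threshold of 1 log2 unit. Its second values were 1869 TPM in replicate 1, 2909 in replicate 2, 888 in replicate 3 and 1369 in replicate 4, all above the first. The difference in log2(TPM + 0.1), second minus first, was 2.67 ± 0.41 (SD, n = 4), or 6.37-fold (limma, Benjamini-Hochberg adjusted p = 8.01e-89). Lars2-209 gained, to 1368, 1777, 551 and 929 TPM, and Lars2-205, annotated as a retained intron, went from 0 to 495, 1123, 324 and 426 TPM. By mean TPM Lars2 moved from rank 494 to rank 50 of all genes. Lars2-201 hardly moved, at 6.52, 9.36, 12.4 and 14.3 TPM. Of 12299 genes tested, 944 (7.68%) were called higher in the second and 396 (3.22%) lower. Counted down from the largest increase, Lars2 was number 698. For the members, 1 of 48 was higher and 0 were lower. limma set the spread of each gene wholly by the trend over all genes here, so its p-values do not use a gene's own spread.

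The other 47 members moved little: from -0.73 for Fars2 to 0.0012 for Wars2, beside -0.29 for the median gene. Fars2 passed the p threshold but not the size threshold (limma adjusted p = 4.99e-06), with 7.67, 8.40, 10.2 and 12.5 TPM in the second quantification. The medians of the 3 groups were -0.34 for cytosolic synthetases, -0.26 for mitochondrial synthetases and -0.37 for stress response genes. The shift differed by library: the median gene moved by -0.41 in replicate 1, -0.59 in replicate 2, -0.037 in replicate 3 and -0.13 in replicate 4. The signed difference lay lower in both replicates 1 and 2, with 6 read files each in the deposited records, than in both replicates 3 and 4, with 4 each, in 42 of 48 members, Lars2 included, and in 80.9% of all genes tested. Replicates 3 and 4 also had more counts on genes than replicates 1 and 2, and the part of depth was not tested. Among pathway genes Shmt1, the cytosolic counterpart of Shmt2, was called higher in the second, at 1.83, 3.25, 4.75 and 5.57 TPM against 0.78, 2.18, 2.23 and 1.52 TPM in the first (limma adjusted p = 1.77e-07).

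**Figure D5:**
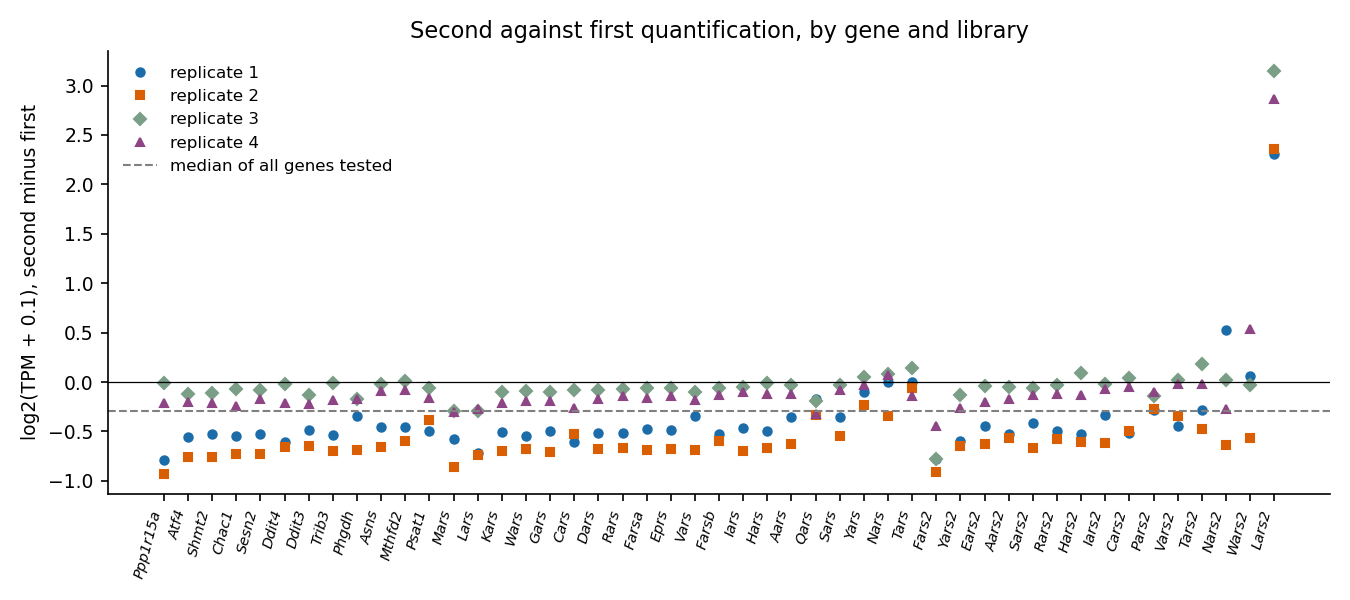
Difference in log2(TPM + 0.1), second minus first quantification, by member in replicates 1 to 4; the solid line marks 0 and the dashed line the median of all genes tested, -0.29. Lars2 stands at 2.31 to 3.15, apart from every other member drawn.

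The number of read files is the only technical split that the deposited records give. It is also a split by depth: replicates 3 and 4 had 41453162 and 34946569 counts on genes, and replicates 1 and 2 had 26613690 and 23167140. Mitochondrially encoded genes took 1.94%, 2.80%, 4.77% and 4.00% of TPM in replicates 1 to 4. File number, depth and this share cannot be told apart here. edgeR's quasi-likelihood test of the 2 libraries with 4 files against the 2 with 6 called 0 of 12667 genes after Benjamini-Hochberg adjustment (0%), with 897 at an unadjusted p up to 0.05, and DESeq2 called 103. Of the 49 members tested, Lars2 and Farsb, a subunit of the cytosolic phenylalanyl enzyme, had an unadjusted p up to 0.05. Lars2 was lower with 4 files, with a log2 difference of -1.72 (edgeR adjusted p = 0.586), and its 2 pairs of libraries did not overlap. DESeq2 called it with a log2 difference of -1.74 (DESeq2 adjusted p = 0.000274). Farsb stood at 34.3, 44.8, 58.7 and 53.0 TPM in replicates 1 to 4, with a log2 difference of 0.42 (edgeR adjusted p = 0.656). The 4 stress response genes that varied did not separate by file number: each had 1 high and 1 low library in both pairs. Within the libraries with 6 files Ppp1r15a was at 308 and 465 TPM, and within those with 4 at 184 and 759 TPM.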

How the data were processed

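PolyA-selected RNA was measured in 4 libraries of 1 group. Per the deposited records, reads were assigned on mm10 with GENCODE M21; programs and strand setting are not given in the sources used here. The deposited expected and estimated counts are not normalised. The deposited TPM were scaled by the authors to 1 sum per library, and the deposited transcript shares are in percent; both were used as given. The first quantification holds gene and transcript tables, the second transcripts, and the 141767 transcripts in both were summed per gene to compare them.

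Counts were rounded. edgeR 4.0.16 (TMM, its own filter on low counts), limma 3.58.1 with trend (pseudocount 0.1, mean of at least 1 TPM in either quantification) and DESeq2 1.42.0 as an alternative were fitted over all genes, at an adjusted p of 0.05. On simulated data the edgeR test between libraries recovered 83% of 200 genes raised 4-fold in 1 library, with 2 false calls (11679 genes). The read-file test recovered 93% of 200 changed 4-fold, with 7 false calls (11679 genes). The limma test recovered all of 200 shifted by 2 log2 units (100%, 11234 genes), with 0 false calls. Counts were simulated at the spread of edgeR's trend, and shifts without a difference by library. These rates need not hold for the real data. Members and lists were chosen with earlier results of these data known. Values by library are given for the 12 stress response genes, for synthetases passing a test, and for the 5 highest and 3 lowest of each synthetase group. Near-identical stretches were searched with BLAST among GENCODE transcripts. Entries other than Ensembl genes were left out. Some members, list genes and sequences are not reported here.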

Additional observations from a re-analysis of the deposited data

Results flagged for a closer look

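In 3 of 54 sets of 4 library values, 1 library lay far from the other 3 by Dixon's ratio, which chance alone does for about 1 set in 20. Rars2 stood at 20.05 TPM in replicate 3, against 14.21 to 14.36 in the others. Wars2 stood at 2.58 TPM in replicate 3, against 1.74 to 1.85. The median log2(TPM + 0.1) of the cytosolic synthetases was 5.14 in replicate 1, against 5.53 to 5.60 in the others.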

How the results depend on the processing

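The 5 members that varied between libraries (Lars2, Ppp1r15a, Trib3, Phgdh, Chac1) were the same genes with RLE size factors, with no filter, with DESeq2's dispersion trend and with counts of the second quantification. With 1 library left out, 1 to 4 members and 135 to 219 of all genes passed, where fewer samples were tested. Leaving out 1 library gave 1 member differing between quantifications each time, 0 differing by read files, 47 to 48 at 1 TPM, 3 to 4 members under 50% coding transcripts, and 0 to 13 of all genes differing by read files. With the second quantification the median log2 level was 5.13 for cytosolic and 2.23 for mitochondrial synthetases, and with a pseudocount of 1 it was 2.68 for mitochondrial ones. Genes higher in the second quantification numbered 944, but 507 in CPM, 304 at a mean of at least 5 TPM and 1733 without a filter; those lower numbered 396, but 144 in CPM, 186 at that mean and 3779 with no minimum difference. With no minimum difference 19 of 48 members passed, Lars2 among them, where 3779 of all 12299 genes tested were called lower. The median gene itself moved by -0.29, so this count is not read as a trait of the members. Centring on the median gene, chosen after the data were seen, left Lars2 the only member called. Read files gave 0 genes and 0 members in edgeR, 103 and 1 (Lars2) with DESeq2, and 35 and 1 (Lars2) without a filter. The cause of these shifts was not tested. No paired analysis was possible because there is 1 group. Depth limits the members with few counts: Ddit4 had 31 to 60 a library, Mars2 21 to 67 and Phgdh 30 to 267.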
